A study of Homo sapiens with 2 samples.

Results

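The HOX genes were described in HepG2 cells, an established human hepatoma line, with and without hawk tea extract (HTE). Members were all protein-coding genes named HOXA, HOXB, HOXC or HOXD followed by a number whose RefSeq transcript is the target of an array probe, without antisense genes. This gave 39 genes, 11 in the HOXA cluster, 10 in HOXB, 9 in HOXC and 9 in HOXD, of 41127 genes and unnamed transcripts with a probe. The rule used names only and no measured value. A single 1-colour (Cy3) Agilent array was hybridised with RNA of DMSO-treated cells, the vehicle control. A single array was hybridised with RNA of cells treated with HTE, and the labels give 24 h for both treatments. HTE is an ethanol extract of the leaves of Litsea coreana, taken up in DMSO. The sample labels put its dose at 200 μg mL−1, whereas the study's text and the mark on the deposited array data put it at 300. With 1 array per condition no test was possible, the spread between cultures is not known, and the effect of HTE cannot be told apart from any other difference between the 2 cultures or arrays. In bulk RNA such as this, fewer cells of a type and less RNA per cell cannot be told apart.

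HOX genes encode transcription factors that bind DNA through a homeodomain and give cells positional identity along the body axis of the embryo. In mammals they lie in 4 clusters on different chromosomes, and each gene belongs to 1 of 13 paralogue groups, genes of different clusters that descend from the same ancestor. Genes of low group number lie at the 3′ end of a cluster and pattern anterior regions, and genes of high group number lie at the 5′ end and pattern posterior regions and limbs. HOX proteins bind DNA with TALE cofactors of the PBX and MEIS families, and the clusters are classic targets of Polycomb repression, Trithorax activation and retinoic acid.

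The sequences just before the start sites of 5 genes show what kind of promoter the results below concern. These are the genes that differed by at least 1.5-fold between the arrays, 4 of them lower and HOXD8 higher, and have a single start site in the RefSeq promoter table (GRCh38.p14). Each line gives the 250 bases before the start, 5′ to 3′ on the strand of the gene, with CpG dinucleotides in capitals. The windows are chr2:176188418-176188667 on the plus strand for HOXD1, chr7:27130758-27131007 on the minus strand for HOXA4, chr7:27102684-27102933 on the minus strand for HOXA2, chr2:176157057-176157306 on the plus strand for HOXD3 and chr2:176129455-176129704 on the plus strand for HOXD8.
HOXD1: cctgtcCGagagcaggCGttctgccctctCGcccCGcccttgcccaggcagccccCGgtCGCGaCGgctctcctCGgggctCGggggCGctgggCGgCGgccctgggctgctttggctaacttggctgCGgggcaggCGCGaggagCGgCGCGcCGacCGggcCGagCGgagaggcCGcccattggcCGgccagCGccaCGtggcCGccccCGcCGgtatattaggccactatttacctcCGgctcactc
HOXA4: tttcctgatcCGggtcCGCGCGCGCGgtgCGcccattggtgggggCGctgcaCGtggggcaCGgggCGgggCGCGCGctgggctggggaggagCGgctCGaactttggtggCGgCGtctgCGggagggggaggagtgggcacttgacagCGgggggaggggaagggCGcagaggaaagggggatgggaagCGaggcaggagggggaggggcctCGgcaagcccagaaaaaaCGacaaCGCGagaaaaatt
HOXA2: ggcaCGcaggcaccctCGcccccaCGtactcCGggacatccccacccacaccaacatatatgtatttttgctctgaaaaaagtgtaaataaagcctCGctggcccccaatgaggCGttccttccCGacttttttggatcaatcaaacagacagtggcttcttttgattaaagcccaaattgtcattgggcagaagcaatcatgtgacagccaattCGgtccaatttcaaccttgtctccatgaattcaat
HOXD3: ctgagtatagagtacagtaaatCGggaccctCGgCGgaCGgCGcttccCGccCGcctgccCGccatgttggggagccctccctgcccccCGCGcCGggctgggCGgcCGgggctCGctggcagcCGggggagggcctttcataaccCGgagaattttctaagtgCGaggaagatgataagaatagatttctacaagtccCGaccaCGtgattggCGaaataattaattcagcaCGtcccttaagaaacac
HOXD8: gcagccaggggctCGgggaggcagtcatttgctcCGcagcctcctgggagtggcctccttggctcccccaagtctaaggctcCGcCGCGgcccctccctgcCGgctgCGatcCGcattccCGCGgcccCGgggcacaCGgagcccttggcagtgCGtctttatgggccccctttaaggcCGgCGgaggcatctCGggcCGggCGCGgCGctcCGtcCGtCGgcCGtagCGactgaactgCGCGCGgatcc

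HOXD1 held 31 CpG dinucleotides in its window, HOXD8 28, HOXA4 26, HOXD3 21 and HOXA2 8. The promoter table matched 20 of the 39 genes with 26 different starts, and their median was 19.5 CpG, against 11 over all 34943 starts of the table. The matched windows thus held more CpG by their median, at a median GC content of 58.8% against 58%. They do not stand for the whole family. HOXB was matched only by HOXB1 (7 CpG), and HOXC only by a window that HOXC4 and HOXC5 share. HOXA3 alone had 7 starts. The lower genes printed above ranged from the low count of HOXA2 to the high count of HOXD1. Motifs of 3 kinds were searched on both strands. The TATA box letters TATAAA were in 5 of the 26 HOX windows (19.2%) and in 10.8% of all windows. None of these 5 belonged to the genes printed above. The letters TGATNNAT, which can be bound by a HOX and a PBX protein together, were in 3 of the 26 HOX windows, those of HOXA2, HOXB1 and HOXD11, and in 6.49% of all. AGGTCA, the core letters bound by nuclear receptors such as the retinoic acid receptors, was in 0 of 26 HOX windows and in 12.1% of all. The only overlap between matches was that of 2 TATAAA matches on opposite strands in the window of HOXD13. A match is a run of letters and not a measured site.

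Each gene was read from the brightest of its probes, and was taken as measured where the scanner software placed that probe well above background. This held for 31 of the 39 HOX genes (79.5%) on each array, the same 31 genes on both. Among 18185 protein-coding genes with a probe, it held for 77.3% on the DMSO array and 74.7% on the HTE array, so that the share of the HOX genes lay near the background. HOXA11, HOXB1, HOXC5, HOXC11, HOXC12, HOXD4 and HOXD12 were among the 8 that were not well above background on either array. The processed signals of these 7 lay between 13.9 (HOXB1) and 37.2 (HOXA11) on the DMSO array and between 19.0 (HOXC12) and 53.6 (HOXA11) on the HTE array, and no ratio is given for them. Every cluster was represented among the measured genes, with 9 of 11 in HOXA, 9 of 10 in HOXB, 6 of 9 in HOXC and 7 of 9 in HOXD. A looser flag of the software, signal positive and significant against background, also held for HOXA11, HOXC11 and HOXC12 on the DMSO array, and for HOXA11 on the HTE array. The presence of most members of all 4 clusters in HepG2 cells included genes of the most posterior group, since HOXA13, HOXB13, HOXC13 and HOXD13 were all measured.

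**Figure D1:**
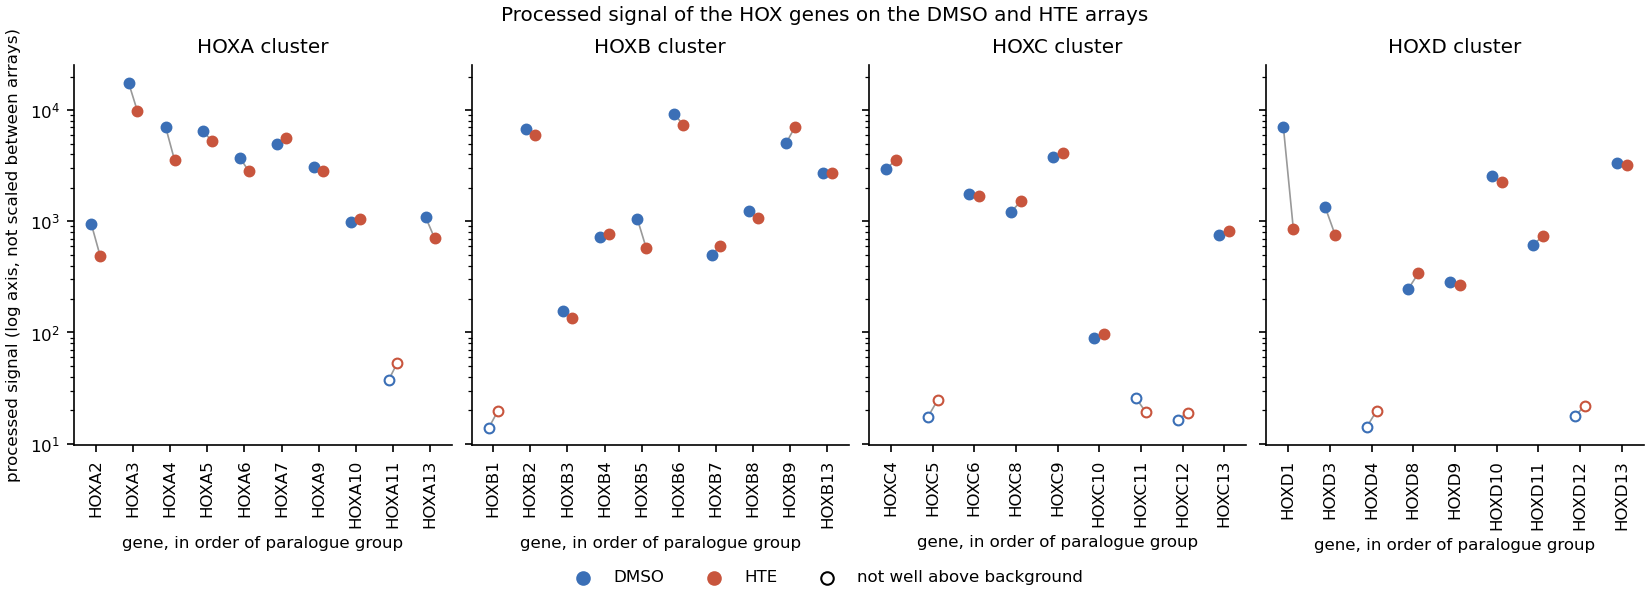
Processed signal of the brightest probe of each of 38 HOX genes on the DMSO array (blue) and the HTE array (red), on a log axis and not scaled between arrays, by cluster and in order of paralogue group. Open points are not well above background, and the steepest line is that of HOXD1, from 7072 to 847. Signals of different probes cannot be ranked against each other.

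Ratios of HTE over DMSO, on the log2 scale, were taken after each array had been scaled to the 75th percentile of its spots, a processed signal of 4020.0 for DMSO and 3570.3 for HTE, so that a gene of equal standing on both arrays has an unscaled signal lower by 0.17 (log2) on the HTE array. The error given with each ratio is the SD from the error model of the scanner software, which covers the array measurement and leaves out the variation between cultures. It was 0.20 for bright probes. Replicate spots agreed more closely, with a median SD of the log2 ratio of 0.05 over the 688 probes of the array with at least 5 spots.

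HOXD1 was the only HOX gene past the 2-fold cutoff that the study used. No HOX gene was at least 2-fold higher, against 5.25% of all 23748 genes and transcripts tested. HOXD1, 1 of 31 HOX genes (3.23%), was at least 2-fold lower, against 3.03% of all tested. The family thus passed 2-fold about as often as all genes in the lower direction. At a 3-fold cutoff HOXD1 was still called, with 0.543% of all tested lower and 1.78% higher. The median log2 ratio of the 31 genes was 0.10, and that of all tested genes was 0, with 17 HOX genes higher and 14 lower. The middle of the HOX genes spanned -0.19 to 0.28 (quartiles), against -0.29 to 0.29 for the 21000 genes and transcripts measured on both. The balance of directions depended on the scaling and on the choice of probe, since 15 were higher and 16 lower with the mean over all probes, 12 were higher without scaling, 16 with scaling to the median, 17 after quantile normalization and 0 after scaling to the E1A spike-in probes, where the median of all genes was -1.36. Beyond 2 error-model SDs, 7 HOX genes were lower (22.6%) and 5 higher (16.1%), against 16.0% and 16.9% of those 21000 genes and transcripts.

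**Figure D2:**
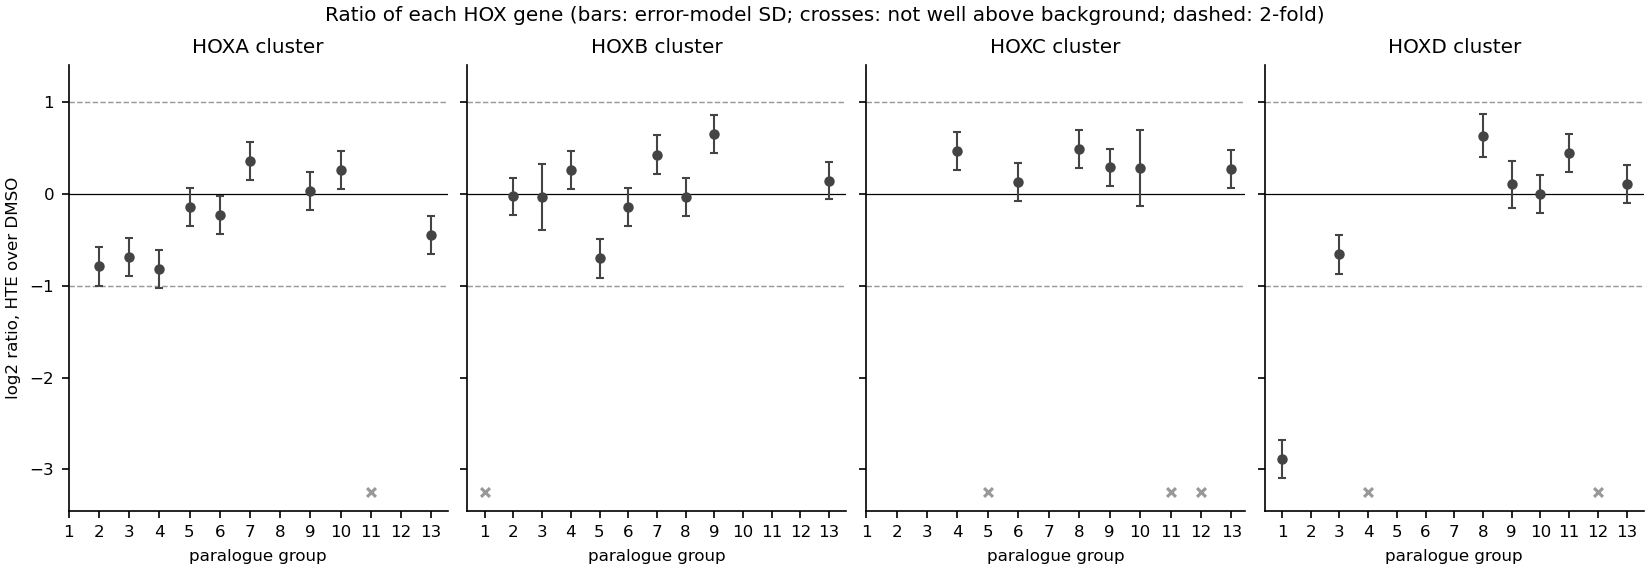
Log2 ratio of HTE over DMSO for the 31 measured HOX genes against paralogue group, 1 panel per cluster, with error-model SDs as bars, 2-fold as dashed lines and crosses at the bottom for 7 genes not well above background. HOXD1 stands alone at -2.89, HOXA2, HOXA3 and HOXA4 lie between -0.82 and -0.69, and all 6 HOXC genes lie above 0.

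HOXD1 belongs to the most anterior paralogue group. Its probe was printed 10 times on each array, whereas every other HOX probe used was printed once. On the DMSO array the 9 spots kept had processed signals from 6898 to 7207 (median 7138), and on the HTE array the 10 spots had signals from 826 to 895 (median 840). The spots of the 2 arrays did not overlap, and the highest HTE spot lay far below the lowest DMSO spot. The log2 ratio was -2.89 ± 0.21 (error-model SD), a 7.41-fold lower level on the HTE array. Over the 9 spot pairs it was -2.89 ± 0.03 (SD of replicate spots), from -2.93 to -2.84. The spot flagged as an outlier on the DMSO array, with a signal of 6785, would have changed the ratio to -2.88. Among the 14636 named genes measured on both arrays, 3 had a larger fall. The fall stayed between -4.26 (spike-in scaling) and -2.77 (normexp background correction) under every alternative. HOXB1 of the same group was too dim on both arrays, so whether it moved with HOXD1 was not measurable.

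**Figure D3:**
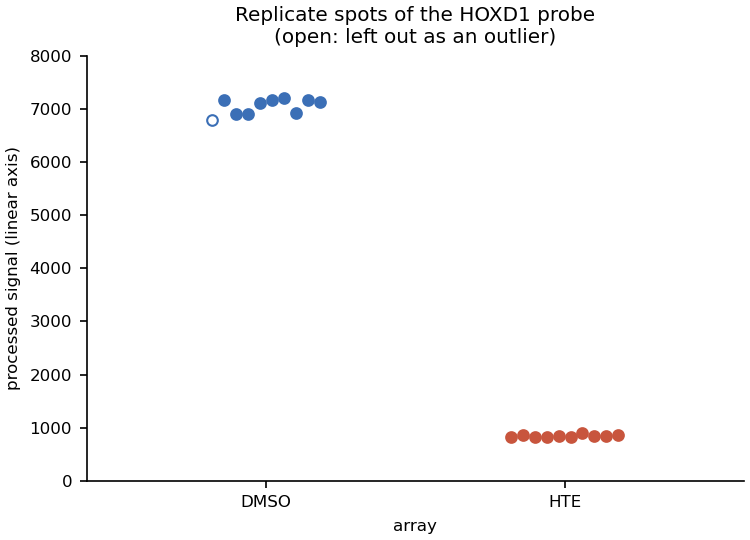
Processed signal (linear axis from 0) of the 10 spots of the HOXD1 probe on each array, with the spot left out as an outlier drawn open. DMSO spots lie between 6785 and 7207 and HTE spots between 826 and 895, with no overlap.

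HOXD3, the next HOX gene of the cluster, was also lower by more than its error, and no measured gene further 5′ was. HOXD3, a gene of anterior patterning, had signals of 1353 on DMSO and 761 on HTE, a log2 ratio of -0.66 ± 0.21. HOXD8 had signals of 247 and 341, a log2 ratio of 0.63 ± 0.23, and is the only gene of the cluster in groups 5 to 8. HOXD9 had signals of 283 and 270 (0.10 ± 0.25). HOXD8 was thus higher beyond 2 SDs, and HOXD9 differed by less than its error. HOXD10, a limb and spinal cord gene, had signals of 2553 and 2266 (-0.0012 ± 0.20). HOXD11, which patterns the forearm and kidney with HOXA11, had signals of 615 and 744 (0.44 ± 0.21). HOXD13, required for digits, had signals of 3322 and 3184 (0.11 ± 0.20). Of these posterior HOXD genes HOXD11 alone was past 2 SDs. The cluster therefore held both the largest fall of the family and, with HOXD8, 1 of its 2 genes at least 1.5-fold higher.

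In the HOXA cluster the 3 measured genes of groups 1 to 4 were all lower. HOXA2, a hindbrain and branchial arch gene, had signals of 941 on DMSO and 483 on HTE, a log2 ratio of -0.79 ± 0.22. HOXA3, needed for thymus and parathyroid, had signals of 17742.5 and 9784 (-0.69 ± 0.20). HOXA4 had signals of 7035 and 3545 (-0.82 ± 0.20). Each of these 3 was at least 1.5-fold and less than 2-fold lower, and each was past 3 SDs of its error. HOXA5, a lung patterning gene, had signals of 6556 and 5270 (-0.14 ± 0.20). HOXA6 had signals of 3725 and 2818 (-0.23 ± 0.20). HOXA7 had signals of 4927 and 5617 (0.36 ± 0.20). None of these central genes was past 2 SDs, and HOXA7 was on the higher side. HOXA9, a regulator of blood progenitors, had signals of 3100 and 2812 (0.03 ± 0.20) at its brightest probe. HOXA10, which acts in blood cells and the uterus, had signals of 996 and 1060 (0.26 ± 0.21). HOXA13, a gene of limb and hindgut, had signals of 1085 and 706 (-0.45 ± 0.21). HOXA13 was the only posterior gene of any cluster that was lower by more than 2 SDs.

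Both HOXA9 and HOXA10 had a second probe that pointed the other way. For HOXA9 it had signals of 3480 and 2341 and a log2 ratio of -0.40 ± 0.20. For HOXA10 it had signals of 336 and 241 and a log2 ratio of -0.31 ± 0.24. The direction of these 2 genes is thus not settled by the arrays. HOXB2 had -0.03 ± 0.20 at its brightest probe and -0.28 ± 0.22 at its other probe, and the other probe of HOXD9 was dim on both. Probes of a gene were not summed, and which transcripts each probe detects was not examined.

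The HOXB cluster was mixed. HOXB2, a hindbrain gene, had signals of 6804 on DMSO and 5934 on HTE (log2 ratio of -0.03 ± 0.20). HOXB3 had signals of 155 and 135 (-0.04 ± 0.36). HOXB4, which promotes self-renewal of blood stem cells, had signals of 718 and 764 (0.26 ± 0.21). The anterior HOXB genes therefore differed by less than 2 SDs. HOXB5 had signals of 1055 and 576, a log2 ratio of -0.70 ± 0.21, and was the only HOXB gene at least 1.5-fold lower. HOXB6 had signals of 9168 and 7376 (-0.14 ± 0.20). HOXB7 had signals of 502 and 598 (0.42 ± 0.21). HOXB5 thus differed from its direct neighbours HOXB4 and HOXB6, although it lies between them. HOXB8 had signals of 1232 and 1066 (-0.04 ± 0.21). HOXB9, which patterns the thorax, had signals of 5019 and 7002, the largest positive ratio of the family at 0.65 ± 0.20. HOXB13, a gene of prostate and tail, had signals of 2748 and 2696 (0.14 ± 0.20). HOXB9 and HOXD8 were the only 2 HOX genes at least 1.5-fold higher (6.45%), against 12.4% of all genes and transcripts.

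All 6 measured genes of the HOXC cluster were higher, by small amounts, although 1 of them, HOXC6, was lower without scaling and all 6 were lower with spike-in scaling. HOXC4, expressed in lymphoid cells, had signals of 2931 on DMSO and 3598 on HTE (log2 ratio of 0.47 ± 0.20). HOXC6 had signals of 1753 and 1700 (0.13 ± 0.21). HOXC8 had signals of 1218 and 1516 (0.49 ± 0.21). HOXC4 and HOXC8 were past 2 SDs, and with normexp background correction HOXC4 had a ratio of 0.84. HOXC9 had signals of 3759 and 4077 (0.29 ± 0.20). HOXC10 had signals of 89.2 and 96.2 (0.28 ± 0.42). HOXC13, a gene of hair and nail, had signals of 761 and 815 (0.27 ± 0.21). These posterior genes had nearly the same ratio, between 0.27 and 0.29, and HOXC10 was dim, close to the lowest signal well above background of its array (94.6 on HTE). The median of the cluster was 0.28, against -0.23 in HOXA, -0.03 in HOXB and 0.10 in HOXD. The order of HOXB and HOXD was not settled, since with normexp background correction HOXB had 0.18 and HOXD 0.09. HOXA had -0.40 there, which is the ratio of HOXA9 under that correction. The other probe of HOXA9 had -0.40 without normexp correction, and whether the correction changed the probe read was not tested. Without scaling HOXD had -0.07 and HOXA -0.40, but every ratio is then lower by the same 0.17, so the order could not change.

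Read along the paralogue groups, the genes at least 1.5-fold lower were mostly in the anterior groups. Of the 14 genes with a ratio below 0, 7 were anterior, 5 central and 2 posterior. The division into groups 1 to 4, 5 to 8 and 9 to 13 was made with the values known, and the counts are a description with no test. In groups 1 to 4, 7 of 9 measured genes were lower (median log2 ratio of -0.66), in groups 5 to 8, 5 of 10 (median 0.04), and in groups 9 to 13, 2 of 12 (median 0.20). Of the 21000 genes and transcripts measured on both, 50.5% were lower and 49.5% higher. At least 1.5-fold lower were 5 of the 9 anterior genes, HOXA2, HOXA3, HOXA4, HOXD1 and HOXD3, then 1 of 10 central genes, HOXB5, and 0 of 12 posterior genes. Over the family this was 6 of 31 (19.4%), against 10.5% of all genes and transcripts. The anterior shift came from HOXA and HOXD, as HOXB2 and HOXB3 lay near 0 and HOXC4 was higher. The anterior median was -0.83 without scaling, -0.74 with scaling to the median and -2.03 on the spike-in scale. These scalings shift every ratio alike, so the order of the 3 medians could not change. Quantile normalization and normexp correction could change it, and the anterior median was again the lowest, at -0.66 and -0.62. Its size rested on the filter, since with the dim genes kept the anterior median was -0.03, with 5 of 12 genes higher. That was still the lowest of the 3, against 0.13 in the central and 0.26 in the posterior groups. The posterior genes were more often higher only in part of the scalings, with 10 of 12 higher after the 75th percentile and after quantile normalization, 9 after scaling to the median, 6 without scaling and 0 with spike-in scaling. The 10 include HOXA9 and HOXA10, and with the mean over all probes 8 of 12 were higher (median 0.13). How closely the ratios of a paralogue group lay together differed between groups. Group 4 was spread widest, from -0.82 for HOXA4 to 0.47 for HOXC4, whereas the 2 genes of group 7 differed by 0.06.

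The noncoding RNAs of the clusters were read from their own probes, matched by RefSeq accession. Of 19 entries listed, 9 had a matched probe and 7 were measured, 4 of them higher and 3 lower (median log2 ratio of 0.02), with 1 higher and 6 lower without scaling. HOTTIP and PRAC1, a protein-coding gene of the HOXB cluster that the list also held, were dim on both arrays. HAGLR, which lies between HOXD3 and HOXD1, had signals of 13238 on DMSO and 6947 on HTE, a log2 ratio of -0.76. HOTAIRM1, next to HOXA2 on its anterior side, had signals of 9334 and 5639 (-0.56). HOXA-AS3, which follows HOXA4 in the gene order, had signals of 274 and 149 (-0.71). These 3 RNAs were thus lower. HAGLR and HOTAIRM1 lie at the anterior end of their clusters beside lower HOX genes. In the gene order HOXA-AS3 comes between HOXA4, which was lower, and the central gene HOXA5. HOXA5 differed by less than its error (-0.14 ± 0.20), and which genes HOXA-AS3 overlaps was not examined. The others differed little. HOXA11-AS (0.08), HOTAIR of the HOXC cluster (0.07) and HOXB-AS3 (0.02) had ratios near 0 and fell below 0 without scaling. HOXD-AS2, which lies between HOXD4 and HOXD8, had signals of 2477 and 2758 (0.33). No noncoding RNA passed 2-fold after the 75th percentile.

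**Figure D4:**
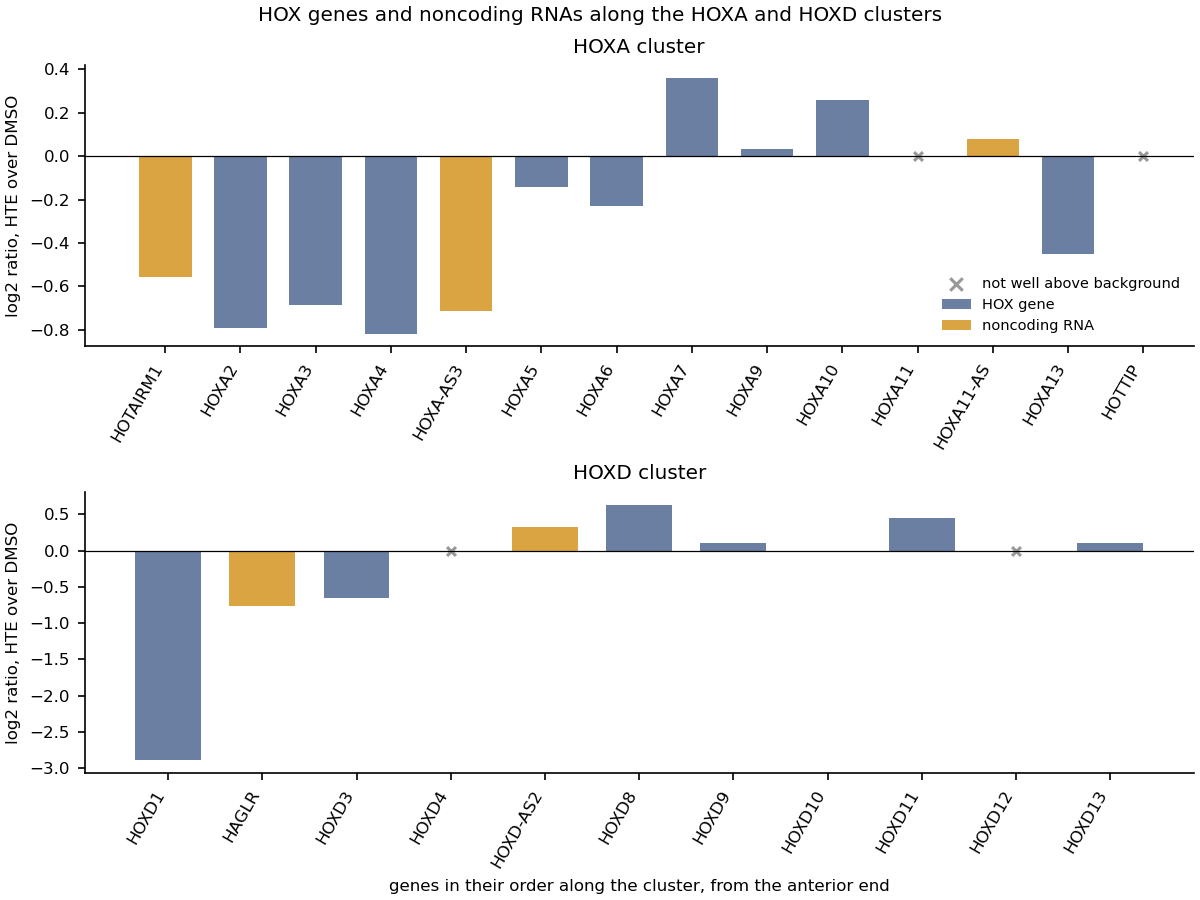
Log2 ratio of HTE over DMSO of HOX genes (blue bars) and noncoding RNAs (yellow bars) in their order along the HOXA and HOXD clusters in the RefSeq gene table, from the anterior end (left), with crosses for genes not well above background and a different vertical scale in each panel. From HOTAIRM1 to HOXA4 and from HOXD1 to HOXD3 every measured bar lies below 0, and the bar of HOXD10 (-0.0012) is too short to be seen.

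The nearest protein-coding genes outside the clusters were taken from the same table. SKAP2 beyond the anterior end of HOXA had signals of 21604 and 21804 (log2 ratio of 0.18), whereas the measured anterior HOXA genes were lower. MTX2, a mitochondrial gene beyond HOXD1, had signals of 39558 and 30573 (-0.20). The fall of HOXD1 was therefore not shared in size by the next gene. On the posterior sides EVX1 next to HOXA13 had signals of 856 and 619 (-0.30), and EVX2 next to HOXD13 was well above background on the DMSO array only, so that no fold is given. SKAP1 beyond HOXB1 was dim, with signals of 84.7 and 110 (0.55), and TTLL6 beyond HOXB13 was not well above background. CALCOCO1 beyond HOXC13 had signals of 103 and 183 (1.00), just past 2-fold and dim, and SMUG1 beyond HOXC4 had 19365 and 19115 (0.15).

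Genes that work with the HOX proteins or act on the clusters were read from lists written by hand. Of 8 TALE cofactors with a probe 7 were measured, and 6 of them were lower, with a median log2 ratio of -0.29. Of the 21000 genes and transcripts measured on both arrays, 50.5% were lower. MEIS1 had signals of 3118 on DMSO and 1577 on HTE (-0.81), the largest difference of the list, followed by PBX3 with 2945 and 1608 (-0.70). MEIS2 had 9359 and 5690 (-0.55). PBX4 was the only one higher, with 524 and 506 (0.12), and was lower without scaling. None passed 2-fold. Of the related homeobox genes of the CDX, EVX, GSX, GBX, MNX and PDX families, 5 of 11 were measured on both arrays, 2 higher and 3 lower, with a median of -0.30. EVX2, GSX1 and GBX1 were measured on the DMSO array only. CDX1, which activates HOX genes in the gut, had signals of 1261 and 693 (-0.69), whereas CDX2 had 2334 and 2704 (0.38). GBX2 had the largest positive ratio (0.67), and PDX1 was not well above background.

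Of 26 Polycomb genes measured, 11 were higher and 15 lower (19 without scaling), with a median log2 ratio of -0.05. EZH2, the methyltransferase that deposits the repressive H3K27 mark, was lowest, with signals of 11507 on DMSO and 6179 on HTE (-0.73). All 13 genes of the Trithorax group and the H3K27 demethylases were measured. Of these, 10 were lower (11 without scaling), against 50.5% of all genes and transcripts measured on both arrays. Their median was -0.25. ASH2L, a subunit of the H3K4 methyltransferase complexes, was lowest, with 21885 and 12168 (-0.68), and the demethylase KDM6B was highest, with 611 and 821 (0.60). No gene of these lists passed 2-fold at its brightest probe, and 1 Polycomb gene did so with the mean over all probes. In retinoid signalling 11 of 18 genes were measured on both arrays, 6 higher and 5 lower, with a median of 0.29. RARG and CRABP1 were measured on the DMSO array only, and with their bounds counted the median was -0.0027. ALDH1A3, which makes retinoic acid, was the only one past 2-fold, with signals of 124 and 328 (1.58, 2.98-fold higher), while 2 genes of the list were also past 2-fold in the lower direction without scaling. STRA6, a receptor for retinol-binding protein, had 575 and 282 (-0.86). CYP26A1, the retinoic acid hydroxylase, had 203 and 133 (-0.44), and RARB was not well above background.

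**Figure D5:**
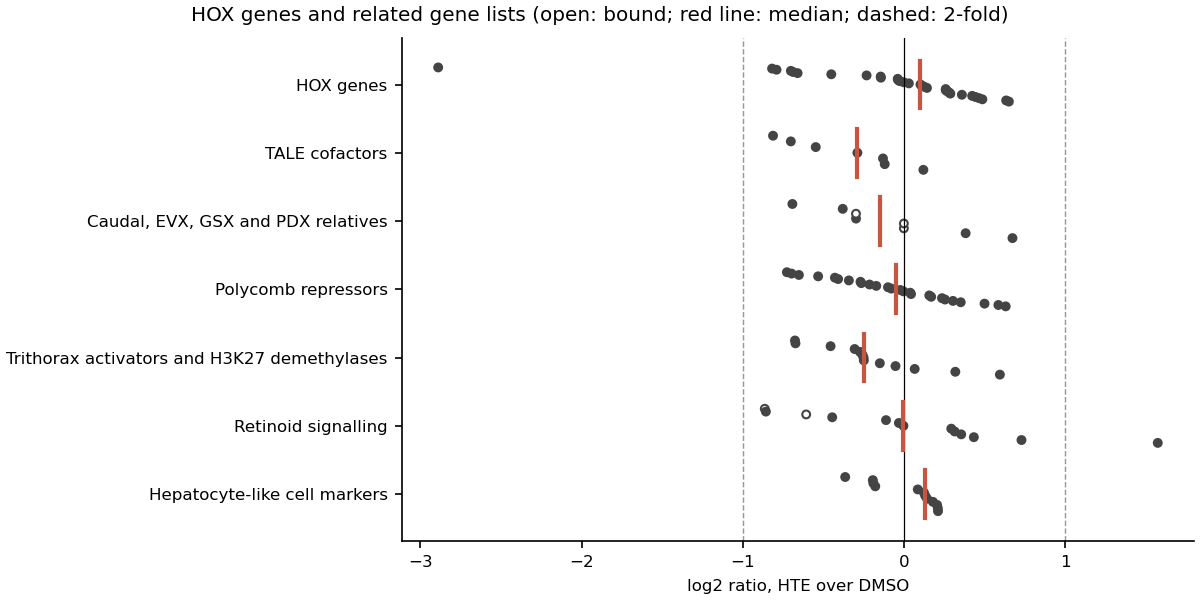
Log2 ratio of HTE over DMSO for the measured HOX genes and 6 related lists, 1 point per gene, with medians (bounds included) as red lines, bounds as open points and 2-fold as dashed lines. HOXD1 at -2.89 lies far outside all other points, and ALDH1A3 at 1.58 is the only other point past 2-fold.

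The identity of the cells was checked on markers. All 12 hepatocyte-like markers were well above background on both arrays, among them ALB, with signals of 149257 on DMSO and 150241 on HTE (log2 ratio of 0.18), and AFP, with 55439 and 43179 (-0.19). They ranged from -0.36 to 0.21, a narrower span than the HOX genes. Of 13 markers of other cell types with a probe, 8 passed the same flag on each array, COL3A1 on DMSO only and MAP2 on HTE only. The signals of all 13 summed to 28246 on DMSO and 27860 on HTE. CD3E, CDH5, COL1A2 and GFAP were well above background on neither array. PECAM1, an endothelial adhesion molecule, had signals of 804 and 203 (-1.82), and MAP2, a neuronal gene, was dim on DMSO and had 199 on HTE (at least 3.37-fold higher). The part of such genes in the HOX values was not tested.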

How the data were processed

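RNA of DMSO-treated and HTE-treated HepG2 cells was measured on 1 Agilent SurePrint G3 human gene expression array each, on the same slide. The authors deposited the Feature Extraction output (version 11.5.1.1 in the file header, 10.7 in the submitters' processing notes). As deposited, the processed signal is an intensity per spot, already background-subtracted and detrended by the software and not scaled between arrays, with its flags and error estimates. No spot was saturated.

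Control and outlier spots (440 on DMSO and 459 on HTE) were left out, log2 was taken, and the 75th percentile of each array was subtracted. Replicate spots were then averaged, and a probe counted as well above background when at least 0.5 of its spots were. Where this held on 1 array only, the ratio is a bound against the higher of the lowest such signal on the other array and the probe's own signal. Probes were named by RefSeq accession through the gene table of GRCh38.p14 (28174 of 50599 probes). The file headers name another build, so the gene table gave names and gene order only, and promoter coordinates are those of the RefSeq promoter table. The error-model SD combines the signal errors of both arrays on the log2 scale.

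Named are the measured HOX genes, the largest changes of each list and the nearest outside genes, taken as protein-coding. Some items are not reported here. Members and lists were chosen with earlier results of these data known. The alternatives were other scalings (none, median, quantile, E1A spike-in), normexp correction (offset 50, on median signals, as no mean signal was given), filters on dim probes, outlier spots, the mean over probes, other flags and other fold cutoffs. The steps were tested on simulated data. Tables were computed in Python (3.11.15) using pandas 2.3.3, then numpy 2.4.6, and drawn by matplotlib 3.10.9, while quantile and normexp values came from limma (3.58.1) under R 4.3.3.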

Additional observations from a re-analysis of the deposited data

How the results depend on the processing

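HOXD1 was the only HOX gene at least 2-fold lower, and none was at least 2-fold higher, without scaling, with scaling to the median, quantile normalization, normexp background correction, either filter on dim probes, the own value of a dim probe, outlier spots kept, the mean over all probes and a 3-fold cutoff. Scaling to the E1A spike-in probes, which lowers every ratio alike, gave 25 HOX genes at least 2-fold lower (77.6% of all genes were) and a median of -1.26. The 8 spike-in probes used differed among themselves, with log2 ratios from 0.44 to 1.56 before scaling. A 1.5-fold cutoff gave 2 higher and 6 lower. The median log2 ratio of the HOX genes, 0.10, was -0.068 without scaling, 0.023 with scaling to the median, 0.043 with quantile normalization, 0.16 with normexp background correction and -0.0012 with the mean over all probes, so its sign is not settled. Relative to the median of all genes it was between 0.06 and 0.17 for the scalings and normexp correction, -0.0012 with the mean over all probes and -0.06 with no filter on dim probes. Among the 31 genes, 31 moved by more than their error-model SD with spike-in scaling, 2 with normexp correction (HOXA9 to -0.40 and HOXC4 to 0.84), 2 with the mean over probes (HOXA9 to -0.18 and HOXA10 to -0.03) and 0 under the other alternatives. The causes of these moves were not tested, apart from the common shift of a scaling. The other probe of HOXA9 had -0.40 without normexp correction. Whether that correction changed which HOXA9 probe was read as the brightest was not tested. The 8 genes that are not well above background are limited by signal over background, and the count of genes above it stayed within 1.5 times of 31 for every flag tried. No paired analysis was possible because each condition has a single array.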
